A study of Homo sapiens with 8 samples.

Results

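The mRNA of RRBP1, ribosome-binding protein 1 (also listed as p180), carried 50 of the 4346 G3BP1 peaks in the deposited lists. These were 12 of 1421 peaks from untreated HEK293T cells (Ctrl) and 38 of 2925 peaks from cells given PDS. Members were all minus-strand peaks lying between positions 17594300 and 17663000 of chromosome 20 (hg19), the stretch named for the gene. The stretch was chosen by its peak counts in both lists, so the counts and folds below describe it and carry no test. The limits of the stretch decided nothing. The nearest minus-strand peaks outside it lay 9631156 nt below, at 7962927 to 7963143 (PDS list), and 15215569 nt above, at 32878570 to 32878707 (PDS list). The plus strand of the stretch held 0 peaks in either list.

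RRBP1 is a membrane protein of the rough endoplasmic reticulum, where proteins for secretion and for membranes are made. It binds ribosomes, and it has been described as a factor that keeps ribosomes and mRNAs at that membrane. G3BP1 is an RNA-binding protein of the cytoplasm, known for assembling stress granules, the bodies in which untranslated mRNAs collect when translation initiation stalls. Guanine quadruplexes are folded structures of guanine-rich DNA or RNA in which guanines pair with each other within planes and the planes stack.

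HEK293T is an established line of human embryonic kidney cells. G3BP1 binding was mapped by seCLIP, in which UV light (UVA per the labels) crosslinks proteins to the RNA they touch and the RNA is recovered with a G3BP1 antibody (IP) and sequenced beside an input library made without antibody. The 8 libraries form 4 groups of 2 replicates: Ctrl IP, Ctrl input, PDS IP and PDS input. Ctrl cells received no treatment, and PDS cells received 20 µM PDS for 12 h before crosslinking. What PDS stands for is not given in the labels; in quadruplex work it is usually short for pyridostatin, a ligand that holds such structures in their folded form. The series title places the comparison within the question of whether G3BP1 binds guanine quadruplexes in mRNAs.

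Each condition has 1 deposited list, in which both replicates were combined, so no peak has an SD and no difference between conditions could be set against the spread between replicates. The lists have no header. Fold enrichment is the value read here as the authors' log2 ratio of IP over input for a peak, and the −log10 p is likewise a reading of an unnamed column. Every peak in both lists lies above a log2 fold of 3. The sequencing depth behind a peak is unknown, and the abundance of RRBP1 mRNA in either condition was not analysed here. A peak missing from a list therefore lacked a value past the authors' limits, which does not show that binding was absent. Exon borders and sequence in the hg19 build were not used here, so distances are genomic and may include introns.

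RRBP1 carried more and stronger peaks in the PDS list. Its 12 Ctrl peaks made up 0.844% of the Ctrl list and its 38 PDS peaks 1.3% of the PDS list, and many of these peaks are neighbours that depend on each other. The PDS to Ctrl ratio of peak numbers was 3.17 in RRBP1 and 2.06 over the whole lists. In covered length the ratio was 1.79 in RRBP1, 1261 nt against 706 nt, close to the 1.74 over the whole lists. After peaks within 50 nt were merged, 9 Ctrl and 18 PDS regions remained, a ratio of 2, with 1.73 over the whole lists. The excess over the whole lists was thus seen in the number of peaks and was small in regions and in length. Leaving out peaks shorter than 20 nt left 10 Ctrl and 24 PDS peaks, and whole-list counts for this filter are not given here. Keeping only peaks with a log2 fold of at least 4 and a −log10 p of at least 5 left 6 and 27. Over the whole lists, 313 Ctrl and 808 PDS peaks had a log2 fold of at least 4, without a limit on −log10 p.

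The peaks fell into 14 sites when peaks of both lists within 200 nt of each other were chained, a distance chosen after the lists had been seen. Sites are numbered here along the mRNA from its 5′ end, which on the minus strand means from high to low coordinates. Site 1 stood alone at 17639661 to 17640050, and 22338 nt without a peak separated it from site 2. The other 13 sites lay in the 21929 nt from 17595394 to 17617322, towards the 3′ end. Neighbouring sites of this group were between 344 and 3500 nt apart, with a median of 1504 nt. The 22950 nt of the stretch upstream of site 1 held no peak, and 1094 nt lay downstream of site 14.

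**Figure D1:**
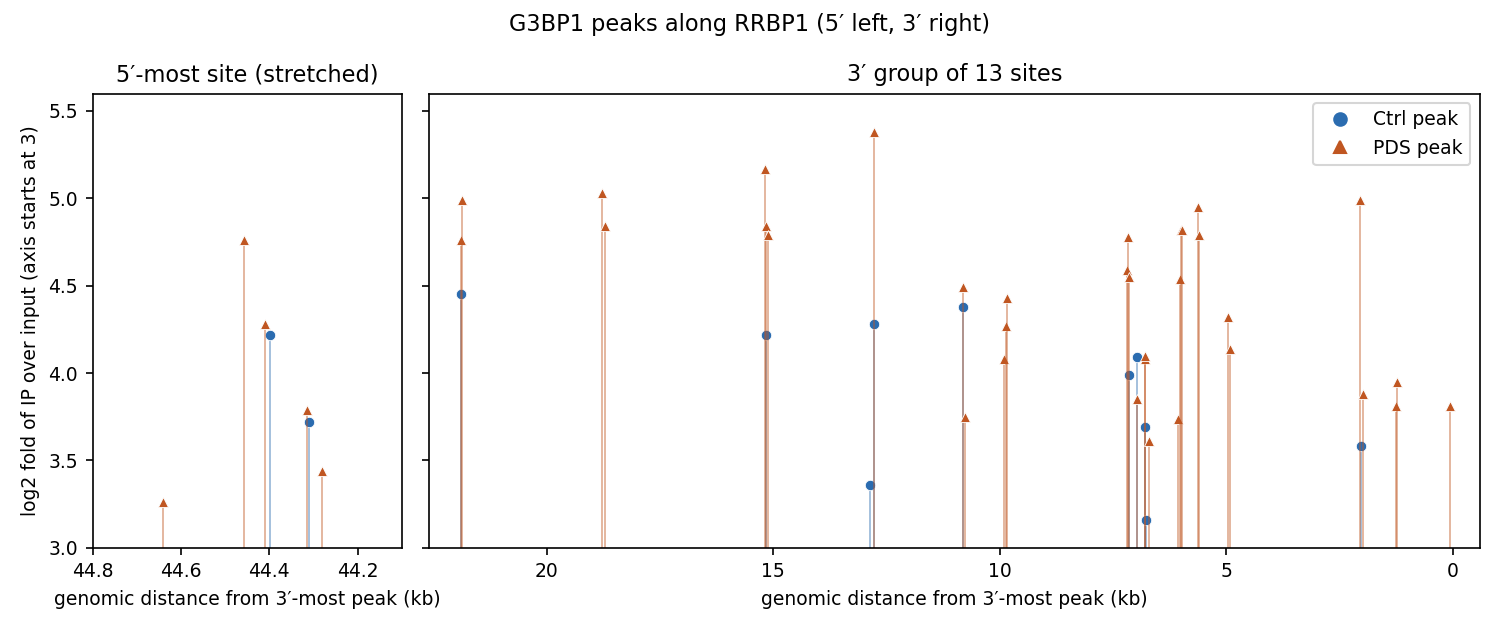
Log2 fold of IP over input (vertical axis, starting at 3) of the 12 Ctrl peaks (circles) and 38 PDS peaks (triangles) of RRBP1, against genomic distance in kb from the 3′-most peak, with the 5′ end on the left and site 1 drawn in a stretched panel of its own. PDS peaks occur at every one of the 14 sites and reach 5.38, while Ctrl peaks occur at 7 sites and reach 4.45.

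Both lists had peaks at 7 of the 14 sites, and the PDS list alone at the other 7. There were 0 sites with Ctrl peaks alone. Over all 2304 sites of the lists chained in the same way, 24.7% held peaks of both lists, 54.3% PDS peaks alone and 20.9% Ctrl peaks alone. The 50% of RRBP1 sites with PDS peaks alone was therefore near the level of the whole lists. Sites were not compared at equal numbers of peaks, and whether peak number bears on holding both was not tested. Within the 7 sites in common, the lists covered similar lengths, 706 nt in Ctrl and 744 nt in PDS, of which 537 nt were the same positions. The 7 sites with PDS peaks alone added 517 nt. Most of the greater bound length in the PDS list thus lay at these additional sites and not at the sites in common.

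In the Ctrl list, 10 of 12 RRBP1 peaks shared at least 1 nt with a PDS peak, beside 51.5% of all Ctrl peaks. In the PDS list, 18 of 38 shared at least 1 nt with a Ctrl peak (47.4%), beside 30.6% of all PDS peaks. By length, 76.1% of the bound Ctrl positions in RRBP1 were also bound in the PDS list, compared with 42.5% over the whole lists. The 2 Ctrl peaks without an overlap had the lowest Ctrl folds of RRBP1, with log2 folds of 3.36 and 3.16, and both lay within 100 nt of a PDS peak. Of the 20 PDS peaks without an overlap, 16 lay in the sites with PDS peaks alone and 4 in the sites in common. With a reciprocal overlap of at least 50%, the sharing was down to 8 Ctrl and 8 PDS peaks.

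Site 1, the only one far upstream, held 2 abutting Ctrl peaks. The first, at 17639746 to 17639840, had a log2 fold of 4.22, and the second, at 17639661 to 17639745, one of 3.72. The PDS list had 5 peaks there. Its peak at 17639829 to 17639874 reached a log2 fold of 4.76 and ran past the 5′ border of the Ctrl peaks. The PDS peaks at 17639780 to 17639828 (log2 fold 4.28), 17639685 to 17639731 (3.79) and 17639666 to 17639684 (3.44) lay within the Ctrl peaks. The 5′-most PDS peak of RRBP1, at 17640019 to 17640050, had its lowest log2 fold, 3.26, and overlapped no Ctrl peak. In both lists the folds within the stretch from 17639661 to 17639874 were higher on the 5′ than on the 3′ side.

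Site 2 gave the highest Ctrl value of RRBP1. Its Ctrl peak at 17617247 to 17617319 had a log2 fold of 4.45, which ranked 127 of the 1421 Ctrl peaks. Abutting PDS peaks covered nearly the same positions, 17617278 to 17617322 with a log2 fold of 4.76 and 17617255 to 17617277 with one of 4.99. At site 4 the Ctrl peak spanned 17610523 to 17610604, with a log2 fold of 4.22. The PDS list split site 4 into 3 abutting peaks, at 17610573 to 17610597 (log2 fold 5.17), 17610534 to 17610572 (4.84) and 17610488 to 17610533 (4.79). All of them exceeded the Ctrl value, and the stretch extended 35 nt further 3′ than the Ctrl peak.

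The most enriched peak of RRBP1 lay at site 5. The PDS peak at 17608149 to 17608201 had a log2 fold of 5.38, a 41.8-fold enrichment that ranked 32 of the 2925 PDS peaks. The Ctrl peak over the same positions, 17608149 to 17608198, shared its 3′ border and had a log2 fold of 4.28, or 19.4-fold. A weaker Ctrl peak just upstream, at 17608226 to 17608283 with a log2 fold of 3.36, had no overlapping PDS peak. Site 5 was the only one of the 7 sites in common with fewer PDS than Ctrl peaks, 1 against 2.

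Site 6 had similar folds in both lists. Its Ctrl peak at 17606181 to 17606247 had a log2 fold of 4.38, and the PDS peak at 17606159 to 17606242 one of 4.49. Site 8 was the longest, 490 nt, and had 4 Ctrl and 7 PDS peaks in 3 clusters. In the 5′ cluster the Ctrl peak at 17602518 to 17602565 (log2 fold 3.99) was overlapped by PDS peaks at 17602550 to 17602584 (4.78) and 17602515 to 17602549 (4.55). In the middle the order was the other way round. There the Ctrl peak at 17602335 to 17602381 had a log2 fold of 4.09 and the PDS peak at 17602335 to 17602371, with the same 3′ border, one of 3.85. The 3′ cluster had Ctrl peaks at 17602177 to 17602192 (log2 fold 3.69) and 17602157 to 17602175 (3.16). The first of these was met by PDS peaks of 3 and 4 nt, at 17602190 to 17602192 (log2 fold 4.08) and 17602184 to 17602187 (4.10).

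Site 12, near the 3′ end, had the largest difference in fold between the lists. The Ctrl peak at 17597378 to 17597443 had a log2 fold of 3.58, or 11.9-fold. The PDS peak at 17597383 to 17597476 had a log2 fold of 4.99, or 31.8-fold, and a 5-nt PDS peak at 17597378 to 17597382 had one of 3.88. The PDS peaks together extended 33 nt further 5′ than the Ctrl peak and ended at the same 3′ border.

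**Figure D2:**
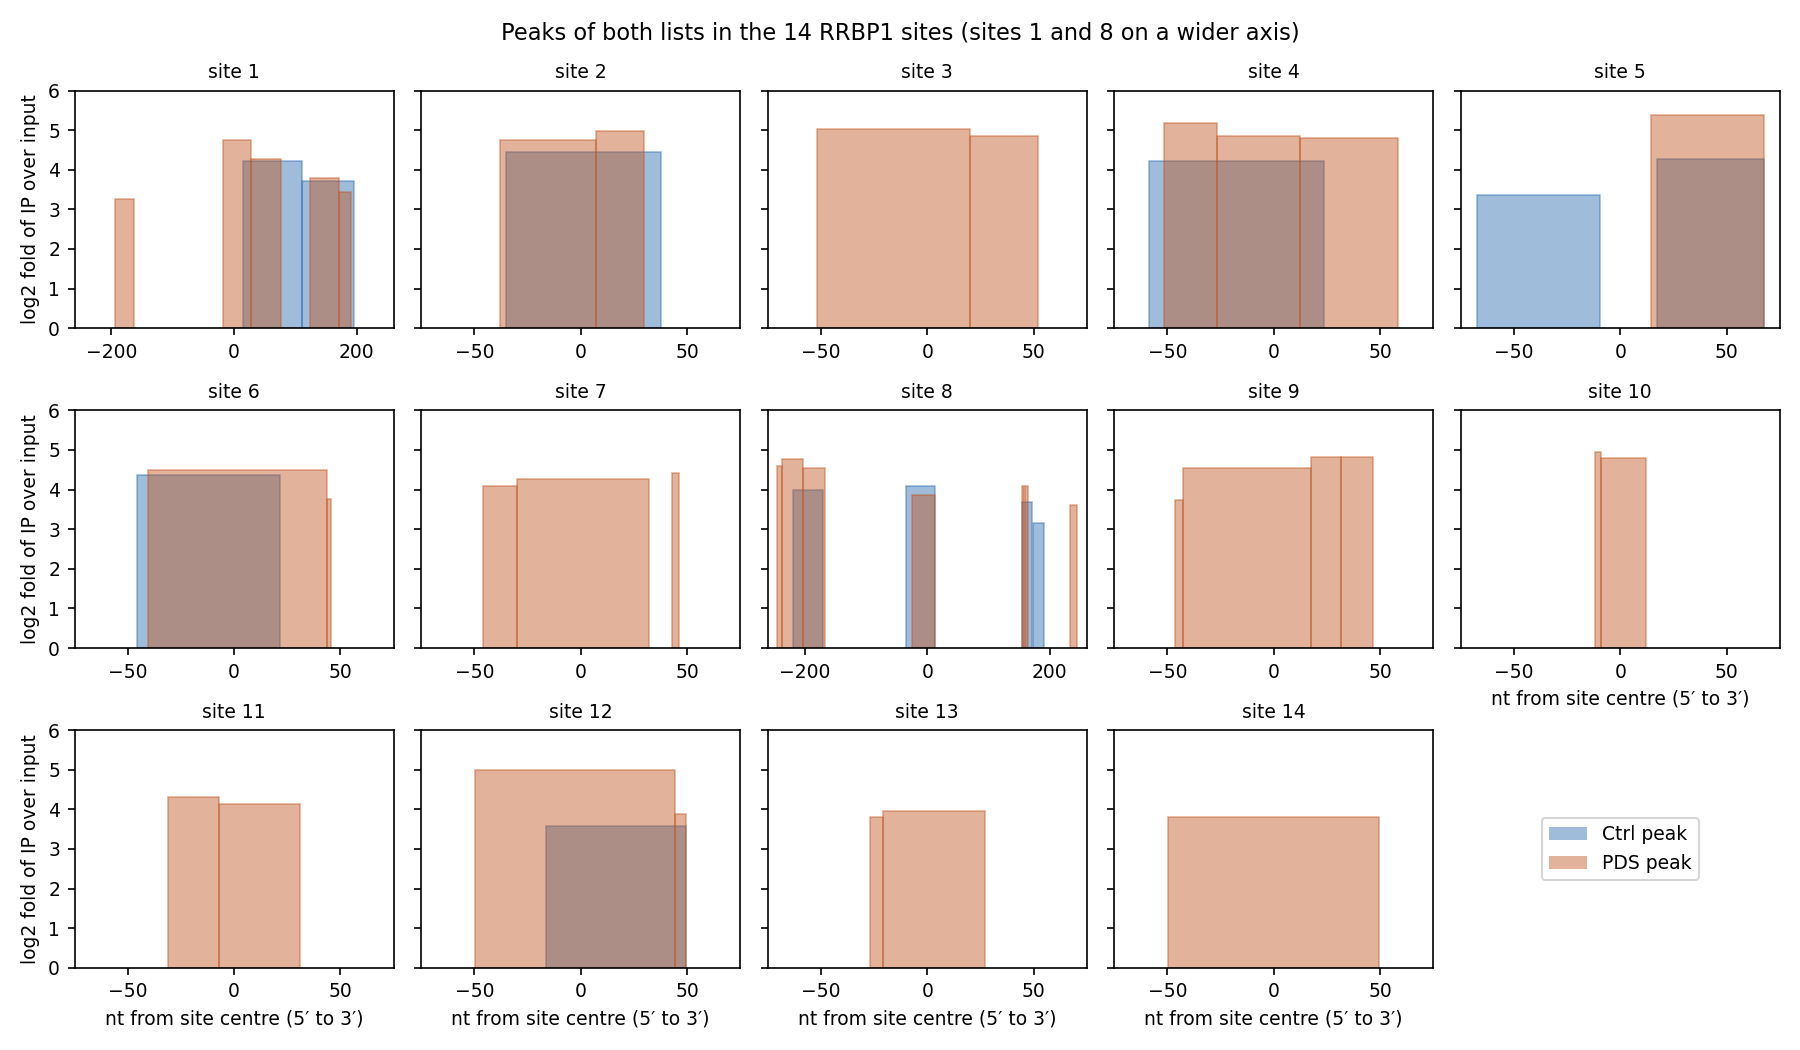
Each panel shows 1 of the 14 RRBP1 sites in mRNA order, with every peak drawn as a block at its position in nt from the site centre (5′ to 3′) and with a height of its log2 fold of IP over input; blue blocks are Ctrl and orange blocks PDS peaks. Sites 3, 7, 9, 10, 11, 13 and 14 hold PDS blocks alone, and at the 7 other sites the tallest PDS block stands above the tallest Ctrl block. At 6 of those sites the PDS list had more peaks to take the tallest from, and no level over the whole lists was counted.

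At the 10 overlapped Ctrl peaks, the mean log2 fold of the overlapping PDS peaks, weighted by the overlapped length, was set against the Ctrl value. Each PDS peak has 1 value for its whole length, also where it runs past the Ctrl peak. The overlap can be partial, as at the Ctrl peak of 16 nt in site 8, of which 7 nt were overlapped. The PDS mean was above the Ctrl value at 8 of 10 peaks, beside 64.1% of the 732 overlapped Ctrl peaks of the whole list. Differences in log2 fold, PDS minus Ctrl, ran from −0.23 at the middle cluster of site 8 to 1.33 at site 12. Their median was 0.39 in RRBP1 and 0.20 over the whole list, where the quartiles were −0.20 and 0.68. Of the 10 differences, 6 lay above the median of the whole list. The largest after site 12 were 1.11 at site 5, 0.72 at site 4 and 0.64 in the 5′ cluster of site 8. Nearest to 0 were −0.03 and 0.16 at site 1 and 0.12 at site 6. Both lists hold only peaks past a log2 fold of 3, so positions that fell below that limit in 1 list are absent from this comparison.

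**Figure D3:**
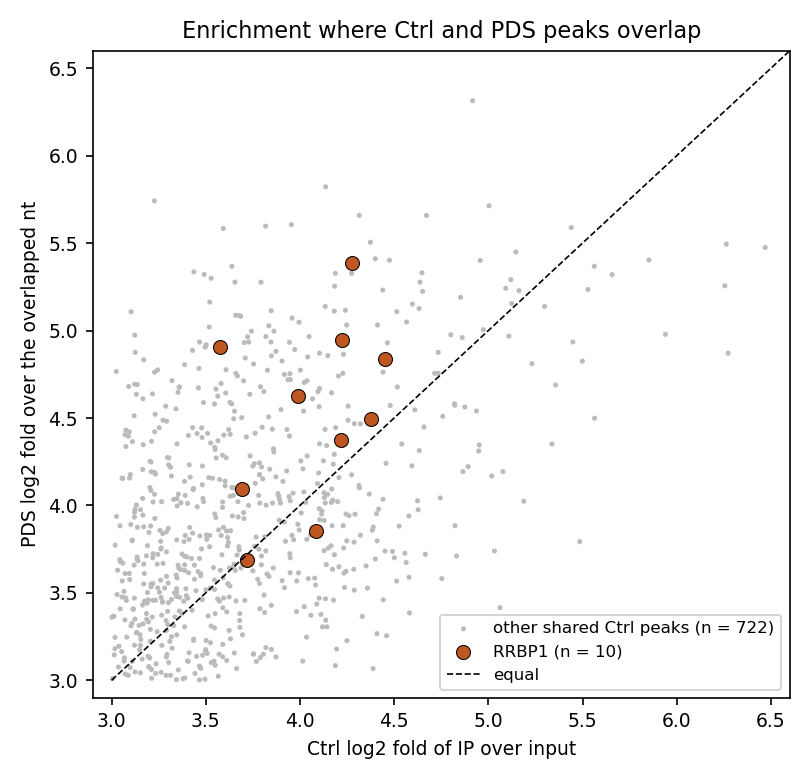
Each point is a Ctrl peak that overlapped a PDS peak, with its Ctrl log2 fold of IP over input on the horizontal axis. The vertical axis gives the mean log2 fold of the overlapping PDS peaks, weighted by overlapped length. Large points are the 10 RRBP1 peaks and grey points the other 722. The dashed line marks equal values, and 8 of the 10 RRBP1 points lie above it.

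The highest log2 fold of each of the 7 sites in common was above the Ctrl value in the PDS list at 7 of 7 sites. At 6 of these the PDS list had more peaks to take the highest from. The PDS list covered more positions than the Ctrl list at 5 of the 7 sites. These counts were not taken over the 570 sites of the whole lists with peaks of both. They therefore cannot be set against a general level.

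Among the 7 sites with PDS peaks alone, site 3 was the strongest. Its abutting PDS peaks, at 17614137 to 17614208 and 17614105 to 17614136, had log2 folds of 5.03 and 4.84. The first ranked 100 of 2925 PDS peaks. No Ctrl peak lay at site 3, although sites 2 and 4 on either side held Ctrl peaks with log2 folds of 4.45 and 4.22. Site 7, at 17605222 to 17605313, held 3 PDS peaks with log2 folds from 4.08 to 4.43.

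Sites 9, 10 and 11 formed a run with PDS peaks alone just downstream of site 8. Site 9 held the only peaks of RRBP1 at the highest −log10 p of the lists, 400, which stands in for a p too small to be given. They lay at 17601389 to 17601448 (log2 fold 4.54) and 17601375 to 17601388 (4.82) and were 2 of 38, or 5.26%, beside 2.8% of all PDS peaks. Site 10, 24 nt long at 17600992 to 17601015, reached a log2 fold of 4.95, and site 11, at 17600294 to 17600355, one of 4.32. Sites 13 and 14, nearest the 3′ end, were the weakest of the sites with PDS peaks alone. At site 13, 17596601 to 17596654, the highest log2 fold was 3.95. The 3′-most peak of RRBP1, at 17595394 to 17595492, had 3.81 and a −log10 p of 48.8, and at 99 nt it was the widest.

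Over all its peaks, RRBP1 stood in the upper part of both lists by enrichment. The 12 Ctrl peaks had log2 folds from 3.16 to 4.45 with a median of 4.04, or 16.4-fold, against a median of 3.52 over the Ctrl list. The 38 PDS peaks ran from 3.26 to 5.38 with a median of 4.46, or 22-fold, against 3.59 over the PDS list. The ranges of the lists overlapped, and 19 of the 38 PDS peaks lay above the highest of the 12 Ctrl peaks. Over the whole lists the order was reversed, with a highest log2 fold of 6.47 in Ctrl and 6.31 in PDS. A log2 fold of at least 4.5 was reached by 47.4% of the RRBP1 PDS peaks, beside 12% of the PDS list. Among the RRBP1 Ctrl peaks 0 reached it, beside 8.37% of the Ctrl list. A log2 fold of at least 4 was reached by 6 of 12 Ctrl peaks, beside 22% of the Ctrl list, and by 27 of 38 PDS peaks (71.1%), beside 27.6% of the PDS list. The PDS median was 0.42 above the Ctrl median in RRBP1, and the medians of the whole lists differed by 0.07. This gap was not particular to RRBP1, as it was wider in each of the 3 loci compared below. There the medians were 4.19 against 3.56 on chromosome 3, 4.13 against 3.57 on chromosome 1 and 3.89 against 3.12 on chromosome 22. PDS peaks without a Ctrl overlap had a median log2 fold of 4.30 in RRBP1 and of 3.47 over the whole list. Those with an overlap had 4.65 and 3.97.

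The −log10 p of the RRBP1 peaks ran from 8.65 to 20.8 in the Ctrl list, with a median of 15.6. In the PDS list it ran from 14.2 to 76.7 below the cap, with a median of 36.5. The medians of the whole lists were 11.9 and 17.8. At 10 of 10 overlapped Ctrl peaks the highest −log10 p among the overlapping PDS peaks was above the Ctrl value, as it was at 545 of 732 over the whole list. The 10 RRBP1 peaks formed 18 overlapping pairs and the 732 peaks 1002. RRBP1 thus had more PDS peaks per Ctrl peak to take the highest from. At a matched log2 fold, within 0.1, 29 of the 38 PDS peaks and 7 of the 12 Ctrl peaks lay above the median −log10 p of the other peaks of their list. More reads raise a −log10 p at the same enrichment, and the part of depth in these differences was not tested.

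**Figure D4:**
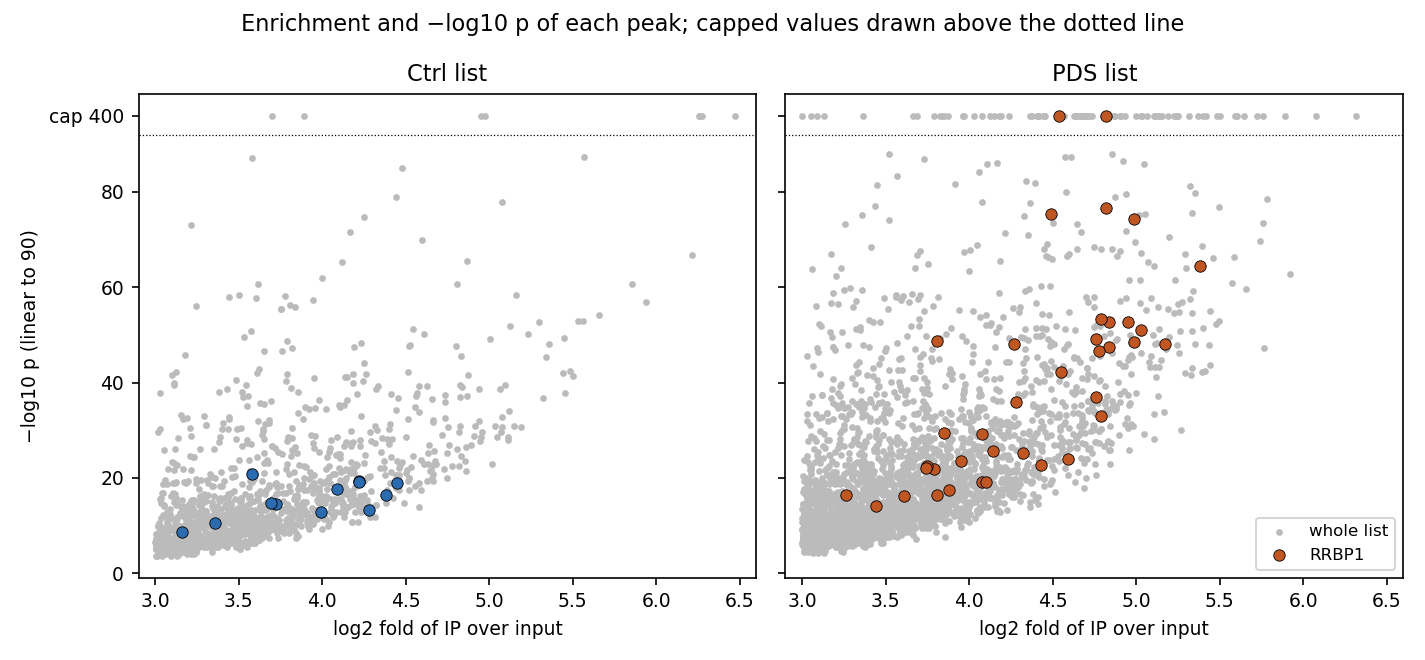
Log2 fold of IP over input (horizontal) and −log10 p (vertical, linear below the dotted line) of every peak in the Ctrl list (left) and the PDS list (right), grey, with the RRBP1 peaks in colour; values at the cap of 400 are drawn above the dotted line. RRBP1 Ctrl peaks stay at or below a −log10 p of 20.8, and 2 RRBP1 PDS peaks are at the cap.

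RRBP1 peaks of the PDS list were short and often abutted each other. Their median width was 32 nt, from 2 to 99 nt, against 63 nt over the PDS list. Ctrl peaks were wider, with a median of 62 nt, from 16 to 95 nt, against 74 nt over the Ctrl list. In the PDS list 17 of 38 peaks (44.7%) began where another ended, beside 23.7% of all PDS peaks, and in the Ctrl list 1 of 12 did, beside 11.1%. There were 7 PDS peaks at most 5 nt wide (18.4%), beside 5.26% of the PDS list and 1.06% of the Ctrl list, where RRBP1 had 0. Of these 7, 4 abutted another PDS peak. Joining abutting peaks alone turned 38 PDS peaks into 21 regions and 12 Ctrl peaks into 11. Few borders coincided. Among the 18 overlapping pairs of a Ctrl and a PDS peak in RRBP1, 3 had the same 3′ border (16.7%) and 1 the same 5′ border (5.56%), beside 5.99% and 6.69% of 1002 pairs over the whole lists. The PDS peak with the same 5′ border was 3 nt wide, and 1 of those with the same 3′ border was 5 nt wide.

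RRBP1 was set beside the 3 other loci with the nearest numbers of PDS peaks, a locus being a chain of peaks of either list with no gap above 10000 nt on that strand. By this chaining RRBP1 itself made up 2 loci, counted here as 1. Of 1190 loci elsewhere, 3 held more PDS peaks than RRBP1 and 8 held more Ctrl peaks, and 3 had a larger excess of PDS over Ctrl peaks than its 26. A further 4 held as many Ctrl peaks. These ranks depend on joining RRBP1 across its gap of 22338 nt, which was not done for the other loci. Its 3′ group alone held 10 Ctrl and 33 PDS peaks. On chromosome 3, plus strand, 27 Ctrl and 41 PDS peaks lay between 184017025 and 184053095, a ratio of 1.52. On chromosome 1, minus strand, the locus from 226549713 to 226595773 held 12 and 33, a ratio of 2.75. On chromosome 22, also minus strand, the locus from 36680454 to 36700157 held 3 and 33, a ratio of 11. RRBP1, at 3.17, was nearest to the chromosome 1 locus.

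By covered length the ratio was 1.24 on chromosome 3, 2.17 on chromosome 1 and 7.3 on chromosome 22, with 1.79 in RRBP1. The median log2 fold of PDS peaks was 4.46 in RRBP1 and lower in the other loci, 4.19, 4.13 and 3.89 in the same order, and that of Ctrl peaks was 4.04 in RRBP1 and 3.56, 3.57 and 3.12 in the others. The highest PDS value followed another order, with 5.76 on chromosome 3 and 5.38 in RRBP1, ahead of 5.11 on chromosome 1 and 4.79 on chromosome 22. The median difference at overlapped Ctrl peaks was 0.39 in RRBP1 (10 peaks), 0.46 on chromosome 3 (17 peaks), 0.54 on chromosome 1 (10 peaks) and 0.81 on chromosome 22 (3 peaks). Sites with Ctrl peaks alone numbered 0 of 14 in RRBP1, 5 of 23 on chromosome 3, 2 of 15 on chromosome 1 and 0 of 13 on chromosome 22. Overlap between the lists was as frequent in some of these loci as in RRBP1. Ctrl peaks that overlapped a PDS peak numbered 10 of 12 in RRBP1, 17 of 27 on chromosome 3, 10 of 12 on chromosome 1 and 3 of 3 on chromosome 22. The share of PDS peaks that met a Ctrl peak was 47.4% in RRBP1, 53.7% on chromosome 3, 42.4% on chromosome 1 and 15.2% on chromosome 22. Abutting PDS peaks were likewise common, 17 of 38 in RRBP1, 14 of 41 on chromosome 3, 16 of 33 on chromosome 1 and 11 of 33 on chromosome 22. These differences between loci have no replicate test.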

How the data were processed

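The submitters' processing notes name the build hg19 and the tools cutadapt, UMI-tools and STAR. For the peak caller, the filters and the joining of replicates, the method is not given in the sources used here. The lists have 6 columns and no header. The fourth was read as the authors' deposited −log10 p per peak and the fifth as their deposited log2 fold of IP over input, from the values and the usual eCLIP layout. Starts were treated as counted from 0 and are printed counted from 1.

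Overlaps need at least 1 nt on the same strand. They were computed in python 3.11.15 (numpy 2.4.6, scipy 1.17.1), checked with bedtools 2.31.1 and tested on simulated data. The stretch, the groupings and the tables of alternatives were chosen with earlier results of these data known. Named peaks were all Ctrl peaks and, of the PDS peaks, those overlapping a Ctrl peak, the 5 most enriched, those at the cap and the outermost; peaks of sites with PDS peaks alone were also named after their values were seen. No model was fitted and no test was run, because the lists hold no value per replicate.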

Additional observations from a re-analysis of the deposited data

How the results depend on the processing

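For RRBP1, 26 of 32 alternative counts and lengths lay within 1.5 times of the reported ones, and the other 6 did not. Medians have no spread between replicates to be judged by and are given as values. Weighted by width, the median log2 fold was 4.22 in Ctrl and 4.54 in PDS, and without peaks shorter than 20 nt it was 4.15 and 4.65. With the PDS peak of largest overlap, the median difference at overlapped Ctrl peaks was 0.35. The stricter threshold (log2 fold from 4 and −log10 p from 5) left 6 Ctrl peaks covering 414 nt, of which 5 were shared, and 9 shared PDS peaks. Without peaks shorter than 20 nt, the PDS list held 24 peaks, and with a reciprocal overlap of 50%, 8 PDS peaks were shared. Stricter settings keep fewer peaks by construction; other causes were not tested. The number of sites ranged from 12 to 17 and that with PDS peaks alone from 6 to 8 over chaining at 50 and 500 nt, the stricter threshold and a PDS list shortened to the Ctrl length. These alternatives on sites, leaving out site 1 and the PDS peak of largest overlap were chosen after seeing the data. No paired analysis was possible because both replicates were combined before deposit, and leaving out a replicate was not possible either. With unknown depth, a site without a Ctrl peak cannot be called unbound.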
